A study of Mus musculus with 35 samples.

Results

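RNA from the testis and the ovary of adult C57BL/6J mice, an inbred laboratory strain, was compared over the protein-coding genes of the 19 autosomes. A gene was taken when the annotation called it protein-coding and placed it on an autosome, which gave 20481 of the 55356 genes in the count table. Of these, 12177 were counted on loci built from long Iso-seq reads and 8304 under their ENSEMBL gene, and 537 loci carried 2 or more genes. A read was found in at least 1 gonad library for 18824 of them, and 17379 passed the filter on low counts and were tested, while 3102 were not. The testis group was 3 libraries of adult males and the ovary group 3 libraries of adult females, and the labels name both tissues gonad and give no allele, treatment or age in weeks. The libraries were made from total RNA after ribosomal RNA was removed, with the strand of each read kept. The fit also held 23 libraries of brain, cerebellum, heart and colon, which shared 1 estimate of the spread between libraries. Nothing in the labels ties a library to an animal, so the p-values measure the spread between these samples, which may be technical.

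The adult testis makes sperm without pause: spermatogonia divide in the wall of the seminiferous tubule, spermatocytes pass through meiosis, and haploid spermatids replace their histones with protamines and build an acrosome and a tail, all beside Sertoli cells. Leydig cells between the tubules make testosterone. In the adult ovary the oocytes have passed recombination before birth and rest in follicles of granulosa cells, theca cells make androgen that granulosa cells turn into estrogen, and the corpus luteum makes progesterone. Germ cells are most of the cells of an adult testis and few of those of an ovary. In such bulk samples fewer cells of a type and less RNA per cell cannot be told apart.

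The gonad libraries held 18035978 to 30925443 counts, of which the autosomal protein-coding genes took 87.1% to 88.3% in testis and 78.3% to 81.3% in ovary. The sexes matched their labels, since Xist, the RNA that silences an X chromosome in females, was at 30.7 to 71.4 FPKM in ovary and at most 0.108 FPKM in testis. FPKM, the level of a gene per length and depth, are here counts per kilobase of exon, scaled to the library total after TMM. Ovary replicate 1, the smallest library, stood apart from the other ovary libraries: over genes, the chi-square per gene of its counts against theirs was 65.7 and 67.0, against 16 between replicates 2 and 3 and 10.1 to 16.6 among testis libraries. It was the lowest of the 3 for 25 of the 26 genes that spanned 8-fold or more among ovary libraries at a mean of at least 5 FPKM over both gonads. Genes of fat cells were among them, and the 8 fat cell markers summed to 464, 481 and 607 FPKM in testis and 30.1, 439 and 243 FPKM in ovary. Left out of the fit, ovary replicate 1 took the counts of called genes from 6735 to 6452 higher in testis and from 5586 to 5476 higher in ovary.

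At the same minimum, 4 genes spanned 8-fold or more among the testis libraries, and all 4 were highest in replicate 1 and lowest in replicate 3. Akr1b7, an aldose reductase, read 206, 4.17 and 1.90 FPKM in testis and 0.358, 0.193 and 1.16 FPKM in ovary, and its log2 fold change of 6.90 ± 1.41 came to 2.38 without testis replicate 1. Crisp1, a secreted protein of the epididymis, read 43.3, 2.47 and 0.107 FPKM in testis and 0, 0 and 0.136 FPKM in ovary. Svs4, a protein of the seminal vesicle, read 41.1, 1.34 and 0.520 FPKM in testis and had no read in any ovary library. The 8 epididymis markers summed to 46.1, 4.89 and 3.30 FPKM in testis and 0.114, 0.385 and 0.202 FPKM in ovary, with the defining markers Lcn5, Lcn8 and Lcn9 filtered as low. Of the 4 that were tested, 3 were higher in testis, and 1 with DESeq2, with the 6 gonad libraries alone or without testis replicate 2, and the median log2 fold change was 5.29, or 2.64 with genes lacking a count in ovary at their bound. The part of such cells in the results below was not tested.

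**Figure D1:**
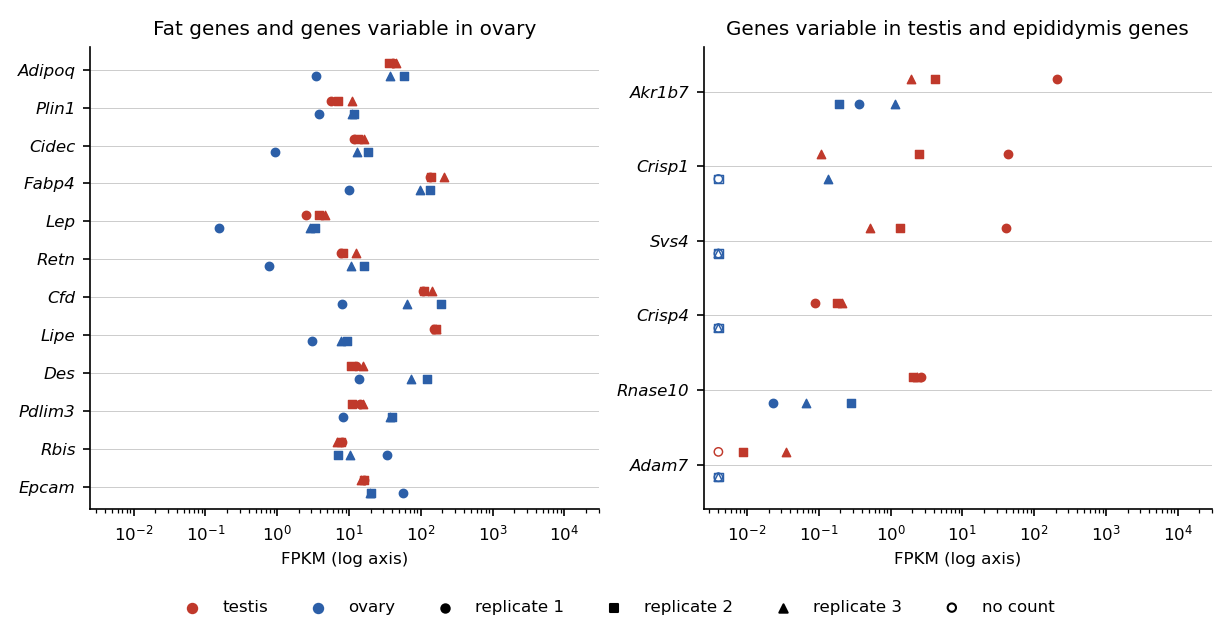
FPKM (log axis) of fat cell genes and genes variable in ovary (left) and of genes variable in testis or of the epididymis (right) in each testis (red) and ovary (blue) library; the symbol gives the replicate and an open symbol drawn at the left edge stands for no count. Ovary replicate 1 lies below the other ovary libraries for the 8 fat cell genes, and testis replicate 1 lies at 206 FPKM for Akr1b7 against 4.17 and 1.90 FPKM.

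Testis and ovary differed at most of the genes tested. By edgeR's quasi-likelihood test at a Benjamini-Hochberg adjusted p under 0.05, 6735 of the 17379 genes were higher in testis (38.8%) and 5586 higher in ovary (32.1%), and 5058 (29.1%) were not called. Over all 29911 genes tested on every chromosome and of every biotype the same shares were 37.8% and 26.4%. A 95% interval of the log2 fold change that lay within -0.5 to 0.5 was found for 537 genes (3.09% of those tested). The size of the differences was not even between the gonads. Of the genes higher in testis, 2374 (35.2%) differed by 16-fold or more, which was 13.7% of the genes tested, against 309 (5.53%) of those higher in ovary, or 1.78% of the genes tested. Over all genes the shares at 16-fold were 18.6% and 1.99%. Under 4-fold the ovary held more, with 1172 genes under 2-fold and 1587 at 2 to 4-fold in testis against 1788 and 2228 in ovary. At 4 to 16-fold lay 1602 in testis and 1261 in ovary. The median log2 fold change was 2.56 over genes higher in testis, -1.36 over genes higher in ovary and 0.11 over all members.

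Many of the largest differences rest on genes with no read in the other gonad, for which only a bound can be given: the lowest library of 1 gonad against the level of 3 counts in the other, taken in the library where that level was highest. Of the 2374 genes, 688 had no count in ovary, and of the 309, 80 had none in testis. With these at their bound, 2088 genes were at least 16-fold higher in testis and 233 in ovary, and the medians of called genes came to 2.38 and -1.33. The numbers of calls in each direction also differed between settings. The share of calls that were higher in testis was 54.7% with TMM, 60.0% with RLE size factors, 59.2% with DESeq2, 50.02% with no filter on low counts, 51.9% with the 6 gonad libraries alone, 42.0% with the upper quartile and 38.6% with total counts. The median log2 fold change of all genes was 0.15 with TMM and moved by 0.17 with RLE, by 0.19 with DESeq2, by -0.15 with no filter, by 0.028 with the 6 gonad libraries alone, by -0.38 with the upper quartile and by -0.53 with total counts. DESeq2, no filter and the 6 gonad libraries alone tested other sets of genes, so their shifts are not of scale alone. Over the autosomal protein-coding genes the median was 0.11 with TMM (17379 tested) and 0.012 with the 6 gonad libraries alone (16017 tested). Differences below about 2-fold are read here relative to the TMM scale. At 16-fold the 2 directions stayed apart under each of these settings, with 2122 to 2535 genes higher in testis and 229 to 495 higher in ovary.

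**Figure D2:**
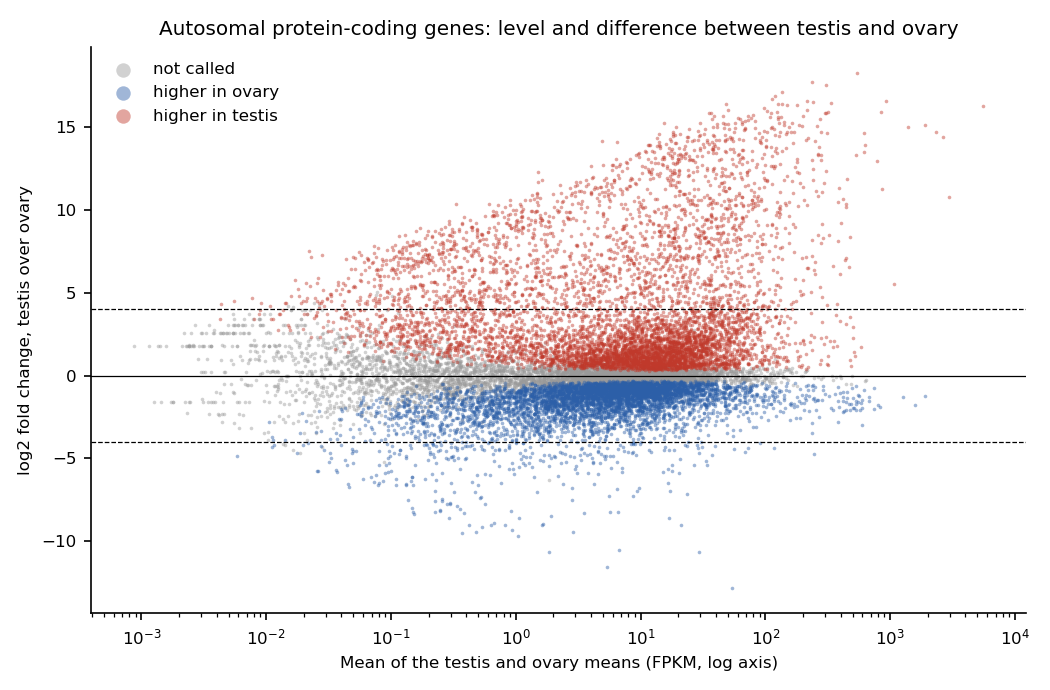
Log2 fold change of testis against ovary against the mean of both gonads' FPKM (log axis) for the genes tested, coloured red where called higher in testis, blue where called higher in ovary and grey where not called; dashed lines mark 16-fold. The red points reach far above the upper line (2374 genes), and few blue points fall below the lower line (309 genes).

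The testis also read more genes. At 1 FPKM or more, 12739, 12662 and 12824 genes were found in the testis libraries and 11506, 11691 and 11684 in the ovary libraries, 12742 ± 81.0 against 11627 ± 105 (SD, n = 3 each). The groups did not overlap, and the exact permutation test over libraries gave p = 0.1, the smallest p that 3 against 3 allows. The difference of 1115 genes was 1125 after every library was thinned to the smallest, and 382 when FPKM were taken per total count without TMM. All 6 libraries held 10131 genes at 1 FPKM or more, and 6269 were under 1 FPKM in all 6. At the extremes, 856 genes were at 1 FPKM or more in each testis library and under 0.1 in each ovary library, against 27 the other way round. The genes 16-fold higher in testis took 33.5% to 35.9% of the autosomal coding counts of a testis library and 0.566% to 0.605% of those of an ovary library. The genes 16-fold higher in ovary took 1.94% to 2.30% of those of an ovary library and 0.0376% to 0.0588% in testis.

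Of the groups of genes used by male germ cells, those of meiosis, piRNAs, spermatids and sperm were higher in testis at most members, while the markers of spermatogonia were mixed. The counts of members in every list are to be read beside the 38.8% of all members that were higher in testis and the 32.1% that were higher in ovary. A log2 fold change is that of testis over ovary, given ± SE, an interval is its 95% interval, and 2 FPKM values set against each other are the means of the 3 testis and the 3 ovary libraries. Of 21 markers of spermatogonia, the dividing cells that feed spermatogenesis, 11 were higher in testis and 2 in ovary, and the median log2 fold change was 0.71. Stra8, which cells need to enter meiosis, read 5.49, 4.61 and 2.76 FPKM in testis and had no read in any ovary library, at least 43.4-fold higher. Dmrt1, a regulator of male germ cells and Sertoli cells, read 8.56, 10 and 6.42 FPKM in testis and had no read in any ovary library, at least 145-fold higher. DESeq2 did not call either of these (adjusted p = 0.171 and 0.112). Dazl, an RNA-binding protein of germ cells of both sexes, read 24.5, 34.1 and 24.4 FPKM in testis and 0.729, 0.653 and 0.570 FPKM in ovary, a log2 fold change of 5.41 ± 0.50. Gfra1, the receptor of stem spermatogonia for GDNF, read 1.52, 1.59 and 1.77 FPKM in testis and 0.0412, 0.640 and 0.230 FPKM in ovary (log2 fold change 2.40 ± 0.48). Kit, the receptor of differentiating spermatogonia and also of oocytes, read 17.6, 13.8 and 16.7 FPKM in testis and 9.83, 9.74 and 14.6 FPKM in ovary, and its 95% interval of -0.01 to 1.0 took in 0, though it was called higher in testis with RLE, DESeq2 or the 6 gonad libraries alone and without ovary replicate 3 (log2 fold change 0.71). Zbtb16, a regulator of stem spermatogonia, was not called either, at 2.97 against 2.24 FPKM (log2 fold change 0.41 ± 0.40). The 2 markers that went the other way were Foxo1, a forkhead factor (3.65 against 38.6 FPKM, log2 fold change -3.40 ± 0.20), and Bcl6b, a repressor (1.44 against 2.97 FPKM, log2 fold change -1.04 ± 0.33), both of which other cells also use.

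Genes of meiotic prophase were higher in testis at 35 of 36 members and in ovary at none, with a median log2 fold change of 6.56, or 5.72 with the 4 genes that had no count in ovary at their bound. Sycp1, the transverse filament of the synaptonemal complex that holds paired chromosomes, read 27.3, 43.7 and 23.6 FPKM in testis and 0.139, 0 and 0.0442 FPKM in ovary (log2 fold change 9.08 ± 0.60). Spo11, which cuts the DNA to start recombination, read 28.9, 32.8 and 29.7 FPKM in testis and had no read in any ovary library, at least 412-fold higher. Dmc1, the recombinase that then invades the partner chromosome, read 5.98, 5.82 and 5.28 FPKM in testis and 0.236, 0.293 and 0.462 FPKM in ovary (log2 fold change 4.09 ± 0.61). Rec8, a cohesin subunit of meiosis, read 38.4, 44.4 and 43.4 FPKM in testis and 3.66, 4.05 and 3.16 FPKM in ovary (log2 fold change 3.54 ± 0.28). In each of these 4 genes the lowest testis library was far above the highest ovary library. Sycp3, of the lateral element, read 71.6, 81.1 and 58.3 FPKM in testis and 7, 2.76 and 3.05 FPKM in ovary (log2 fold change 4.05 ± 0.43), but its locus shares exon bases with a gene on the other strand and was at 33.6 FPKM in heart. Mnd1, a recombination partner of Dmc1, was the 1 member not called (3.37 against 3.58 FPKM, 95% interval -1.0 to 0.82).

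The piRNA pathway, in which PIWI proteins bind small RNAs that silence transposons in germ cells, was higher in testis at 21 of 22 members, with a median log2 fold change of 5.73. Piwil1, the PIWI protein of late spermatocytes and spermatids, read 52.9, 59.0 and 48.6 FPKM in testis and 0, 0.00760 and 0.0472 FPKM in ovary (log2 fold change 11.27 ± 0.58). Mael, a factor of transposon silencing, read 588, 596 and 533 FPKM in testis and 0.871, 1.33 and 0.768 FPKM in ovary (log2 fold change 9.17 ± 0.48). Ddx4, the helicase known as VASA that marks germ cells, read 133, 135 and 112 FPKM in testis and 0.226, 0.323 and 0.271 FPKM in ovary (log2 fold change 8.84 ± 0.38). Piwil2, the PIWI protein of earlier germ cells, and Mov10l1, the helicase that starts piRNA processing, were at 25.7 against 0.485 FPKM and 21.0 against 0.230 FPKM. The ovary level of Ddx4 and Mael was above 0 in each library, where oocytes are known to use both. Piwil4, which acts in fetal male germ cells, was the member not called, at 0.255 against 0.104 FPKM. Transcription regulators of spermatocytes and spermatids were higher in testis at 15 of 16 members (median 5.80). Crem, an activator of postmeiotic genes, read 127, 148 and 124 FPKM in testis and 3.90, 1.85 and 3.54 FPKM in ovary (log2 fold change 5.42 ± 0.25). Sox30, a regulator of postmeiotic genes, read 109.9, 125 and 104 FPKM in testis and 0.117, 0.364 and 0.238 FPKM in ovary (log2 fold change 8.83 ± 0.33), and Rfx2, a regulator of genes of the sperm tail, read 94.3, 105 and 96.6 FPKM in testis and 1.06, 1.57 and 1.19 FPKM in ovary (log2 fold change 6.27 ± 0.25). Mybl1, which acts in spermatocytes, was at 12.0 against 0.480 FPKM (log2 fold change 4.63 ± 0.47). The exception was Brwd1, a bromodomain protein, whose interval of -0.62 to 0.24 lay around 0.

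Proteins that pack the DNA of spermatids gave the largest median difference of any list and the highest levels in the testis. All 11 members tested, which were protamines, transition proteins, testis histones and the chromatin remodeller Chd5, were 16-fold or more higher in testis, with a median log2 fold change of 14.39 (12.49 with genes at their bound). Prm2, a protamine, read 9684, 12813 and 11058 FPKM in testis and 0, 0.251 and 0.134 FPKM in ovary, with a log2 fold change of 16.24 ± 1.14. Prm1, the other protamine, read 4920, 5902 and 5213 FPKM in testis and 0.201, 0.380 and 0.144 FPKM in ovary (log2 fold change 14.39 ± 0.87). Tnp1 and Tnp2, the transition proteins that come between histones and protamines, were at 4695 against 0.147 FPKM and 3828 against 0.0921 FPKM. The ovary values of these 4 genes rest on few reads, and the SE of their log2 fold changes is wide. Hist1h2ba, a testis histone of the H2B family, read 4809, 6311 and 6542 FPKM in testis and 1.10, 4.52 and 4.22 FPKM in ovary (log2 fold change 10.77 ± 0.78). The windows of 120 bases before the RefSeq start of 4 of these genes, of Ldhc, a lactate dehydrogenase of sperm, and of the oocyte gene Zp3 are shown because the genes of spermatids stood so far apart between the gonads, and because the promoters of genes 16-fold higher in testis held less GC at the median than those of all members (below). They lie on build GRCm38.p6 at chr16:10796824-10796943 (minus strand), chr16:10792106-10792225 (minus), chr1:73015900-73016019 (minus), chr16:10788656-10788775 (minus), chr7:46861143-46861262 (plus) and chr5:135979985-135980104 (plus), and the locus counted as Prm1 reaches further upstream than its RefSeq start. Capitals mark the SP1 motif GGGCGG or its reverse complement CCGCCC.
Prm1: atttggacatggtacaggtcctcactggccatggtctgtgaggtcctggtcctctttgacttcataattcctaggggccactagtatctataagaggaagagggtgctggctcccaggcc
Prm2: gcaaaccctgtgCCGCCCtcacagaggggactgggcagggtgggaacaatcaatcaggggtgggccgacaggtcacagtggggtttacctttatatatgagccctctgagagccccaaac
Tnp1: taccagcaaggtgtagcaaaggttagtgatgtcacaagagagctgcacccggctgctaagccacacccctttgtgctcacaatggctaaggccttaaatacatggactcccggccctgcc
Tnp2: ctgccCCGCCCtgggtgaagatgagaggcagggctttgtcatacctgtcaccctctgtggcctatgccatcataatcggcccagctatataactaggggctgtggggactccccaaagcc
Ldhc: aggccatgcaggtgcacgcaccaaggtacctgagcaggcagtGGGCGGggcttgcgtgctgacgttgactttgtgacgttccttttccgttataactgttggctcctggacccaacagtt
Zp3: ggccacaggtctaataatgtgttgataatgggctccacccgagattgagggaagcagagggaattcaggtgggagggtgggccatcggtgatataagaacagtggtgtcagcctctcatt

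In these windows the SP1 letters occur once each in Prm2, Tnp2 and Ldhc, and in none of Prm1, Tnp1 and Zp3. The full cyclic AMP response element TGACGTCA, the sequence bound by CREM, occurs in none of the 6 over the whole 250 bases before the start. A match or its lack describes only these letters in this window.

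Genes for the parts of the sperm cell were higher in testis in the same way. Acrosome and gamete fusion proteins were higher in testis at 21 of 23 members and in ovary at 1, with a median log2 fold change of 9.26 (8.82 at the bounds). Acr, the protease acrosin, read 82.6, 90.5 and 83.8 FPKM in testis and 0, 0 and 0.0181 FPKM in ovary (log2 fold change 13.01 ± 0.77). Izumo1, the sperm protein that binds the egg membrane, read 38.7, 43.3 and 31.4 FPKM in testis and 0.104, 0.0630 and 0.0186 FPKM in ovary (log2 fold change 9.26 ± 0.68). Acrbp, which binds the precursor of acrosin, was at 90.6 against 0.472 FPKM. Spaca6, a sperm surface protein, was the 1 member higher in ovary at 2.76 against 5.20 FPKM (log2 fold change -0.91 ± 0.27), on a locus that shares exon bases with another gene, and was not called without ovary replicate 1 (log2 fold change -0.64, edgeR adjusted p = 0.0515). Gopc, a Golgi protein that sperm head formation needs, was not called, at 6.6 against 6.83 FPKM. Proteins of the sperm tail were higher in testis at 38 of 39 members tested, 37 of them by 16-fold or more, with a median of 9.09. Odf1, of the outer dense fibres, read 1552, 1822 and 1671 FPKM in testis and 0, 0 and 0.0563 FPKM in ovary (log2 fold change 15.93 ± 0.82), and Akap3, of the fibrous sheath, read 452, 408 and 436 FPKM in testis and 0, 0.00769 and 0.00682 FPKM in ovary (log2 fold change 16.01 ± 0.79). Smcp, a cysteine-rich protein of the sperm mitochondria, read 1640, 2437 and 1480 FPKM in testis and 0, 0.0372 and 0 FPKM in ovary (log2 fold change 16.57 ± 0.99). Dnah1, an axonemal dynein that also moves cilia, was lower in level and difference, at 20.3 against 0.767 FPKM (log2 fold change 4.72 ± 0.29).

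Of 16 subunits of the CatSper calcium channel and other ion transporters of the tail, 13 were higher in testis and 1 in ovary (median 8.03). Catsper1, the pore, read 47.9, 51.0 and 43.9 FPKM in testis and had no read in any ovary library, at least 921-fold higher. Catsper2 read 75.2, 75.1 and 66.5 FPKM in testis and 0.351, 0.361 and 0.378 FPKM in ovary (log2 fold change 7.63 ± 0.29), Slc9c1, a sperm sodium-proton exchanger, was at 40.0 against 0.00715 FPKM, and Kcnu1, the sperm potassium channel, at 27.5 against 0.45 FPKM. The 3 other members are used in other cells as well: Hvcn1 and Atp2b4 were not called, and Slc9b2 was higher in ovary at 0.0333 against 0.111 FPKM. The family of ADAM membrane proteases went both ways. Of 33 members, 23 were higher in testis, 20 of them by 16-fold or more (median of the list 9.61, or 6.74 with 10 members at their bound), and 6 were higher in ovary. Adam3, which sperm need to pass into the oviduct, was at 345 against 0.0540 FPKM and Adam2 at 124 against 0.0593 FPKM. Those higher in ovary were less far apart, such as the sheddases Adam10 (7.68 against 14.0 FPKM, log2 fold change -0.87 ± 0.18) and Adam17 (6.83 against 10.6 FPKM, log2 fold change -0.64 ± 0.13) and Adam19 (1.20 against 4.56 FPKM, log2 fold change -1.93 ± 0.31).

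**Figure D3:**
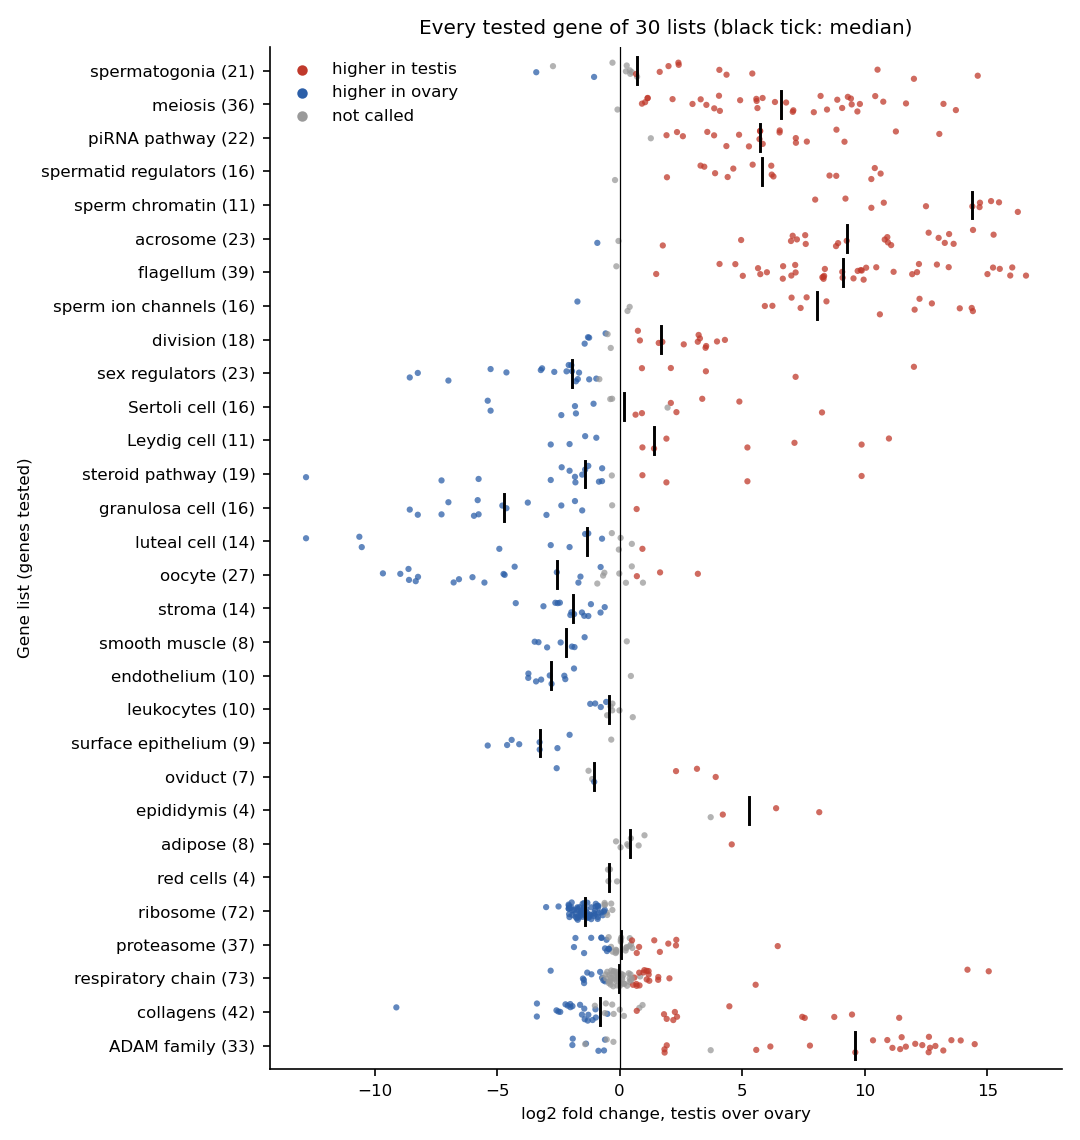
Log2 fold change of testis against ovary for each tested member (points) of the 30 gene lists, with red for higher in testis, blue for higher in ovary and grey for not called, and a black tick at the median of each list. The medians of the lists of meiosis, piRNA, spermatids and sperm lie to the right of 0, at 5.73 to 14.39, with single members near or left of 0, and those of granulosa, endothelium, surface epithelium and stroma lie to the left.

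Genes of DNA replication and cell division went both ways. Of 18 members, 12 were higher in testis and 4 in ovary, with a median log2 fold change of 1.67. Ccnb1, the cyclin that drives entry into mitosis and meiosis, read 71.6, 70.6 and 79.3 FPKM in testis and 5.27, 10.5 and 8.01 FPKM in ovary (log2 fold change 3.22 ± 0.33), and Top2a, which untangles chromosomes, read 44.1, 43.5 and 32.8 FPKM in testis and 13.7, 14.3 and 11.9 FPKM in ovary (log2 fold change 1.59 ± 0.34). Cdk1, the kinase partner of Ccnb1, was called at a log2 fold change of 0.83 ± 0.27, but not with total counts, the upper quartile or no filter. Mki67, a marker of cycling cells, read 3.71, 4.37 and 2.58 FPKM in testis and 6.24, 3.90 and 3.58 FPKM in ovary and was not called, with an interval of -1.40 to 0.67. The 4 members higher in ovary were all MCM subunits of the helicase that opens replication origins: Mcm2 was at 5.27 against 14.2 FPKM (log2 fold change -1.43 ± 0.23), Mcm4 at 4.6 against 10.9 FPKM (log2 fold change -1.25 ± 0.20) and Mcm6 at 7.38 against 18.1 FPKM (log2 fold change -1.29 ± 0.19). Mcm3 was the fourth, at 6.89 against 10.2 FPKM, and Mcm7 was higher in testis, at 65.0 against 19.5 FPKM.

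Regulators of gonad fate in supporting cells were mostly higher in ovary, at 17 of 23 members (73.9%, against 32.1% of all members), with 5 higher in testis and a median of -1.94. Foxl2, which keeps granulosa cells female, read 0.136, 0.0116 and 0.117 FPKM in testis and 24.3, 41.5 and 34.9 FPKM in ovary (log2 fold change -8.56 ± 0.51). Wnt4, a signal of the ovary pathway, read 0.0767, 0.143 and 0.217 FPKM in testis and 14.9, 20.4 and 20.9 FPKM in ovary (log2 fold change -6.99 ± 0.54). Esr2, the estrogen receptor of granulosa cells, read 0.0110, 0.0616 and 0.0519 FPKM in testis and 9.97, 15.8 and 13.5 FPKM in ovary (log2 fold change -8.23 ± 0.68). In each of the 3 the lowest ovary library was far above the highest testis library. On the male side, Sox9, the regulator that makes Sertoli cells, read 5.10, 6.91 and 4.68 FPKM in testis and 1.07, 1.15 and 1.68 FPKM in ovary (log2 fold change 2.09 ± 0.28), and its relative Sox8 was at 4.93 against 0.429 FPKM (log2 fold change 3.52 ± 0.31). Ptgds, the prostaglandin D synthase, was at 418 against 2.91 FPKM (log2 fold change 7.18 ± 0.61). Fgf9, also on the male side, went the other way, at 0.166 against 0.752 FPKM (log2 fold change -2.17 ± 0.33). Cbx2 was higher in ovary as well, at 0.983 against 3.21 FPKM (log2 fold change -1.71 ± 0.27). Dhh, the hedgehog signal of Sertoli cells, was called at a log2 fold change of 0.91 ± 0.33 on a locus shared with Rhebl1, but not with total counts, the upper quartile or no filter, nor without testis replicate 2 (log2 fold change 0.79) or ovary replicate 1 (log2 fold change 0.69). Wt1, which both gonads use, was at 15.8 against 54.5 FPKM (log2 fold change -1.78 ± 0.45) and Nr5a1, the steroidogenic factor 1, at 19 against 36.7 FPKM (log2 fold change -0.95 ± 0.26). Esr1, the other estrogen receptor, was not called (log2 fold change -0.83 ± 0.53) and was called higher in ovary with total counts, the upper quartile or the 6 gonad libraries alone.

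Amh, the hormone that removes the female ducts in male embryos and that granulosa cells of growing follicles make in adults, read 0.392, 0.0647 and 0.261 FPKM in testis and 2.79, 15.6 and 9.39 FPKM in ovary. It was higher in ovary, with a log2 fold change of -5.26 ± 0.68, although it stood in the list of Sertoli cell genes. That list was split, with 7 of 16 members higher in testis and 6 in ovary (median 0.17). Higher in testis were Cst9, a cystatin, which read 132, 124 and 118 FPKM in testis and 0.512, 0.691 and 0.0408 FPKM in ovary (log2 fold change 8.25 ± 0.56), and Cldn11, a claudin of the blood-testis barrier, at 18.2 against 1.75 FPKM (log2 fold change 3.37 ± 0.35). Higher in ovary were also Krt18, Wt1, Gdnf, Inhbb, the beta B chain of inhibin and activin (4.26 against 22.2 FPKM, log2 fold change -2.38 ± 0.40), and Fshr, the receptor for follicle-stimulating hormone that Sertoli and granulosa cells share. Fshr read 0.801, 0.829 and 0.821 FPKM in testis and 1.41, 4.50 and 2.77 FPKM in ovary (log2 fold change -1.82 ± 0.60, edgeR adjusted p = 0.0161), and was not called by DESeq2 or without testis replicate 1, testis replicate 2 or ovary replicate 2 (log2 fold changes -1.81, -1.80 and -1.36).

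**Figure D4:**
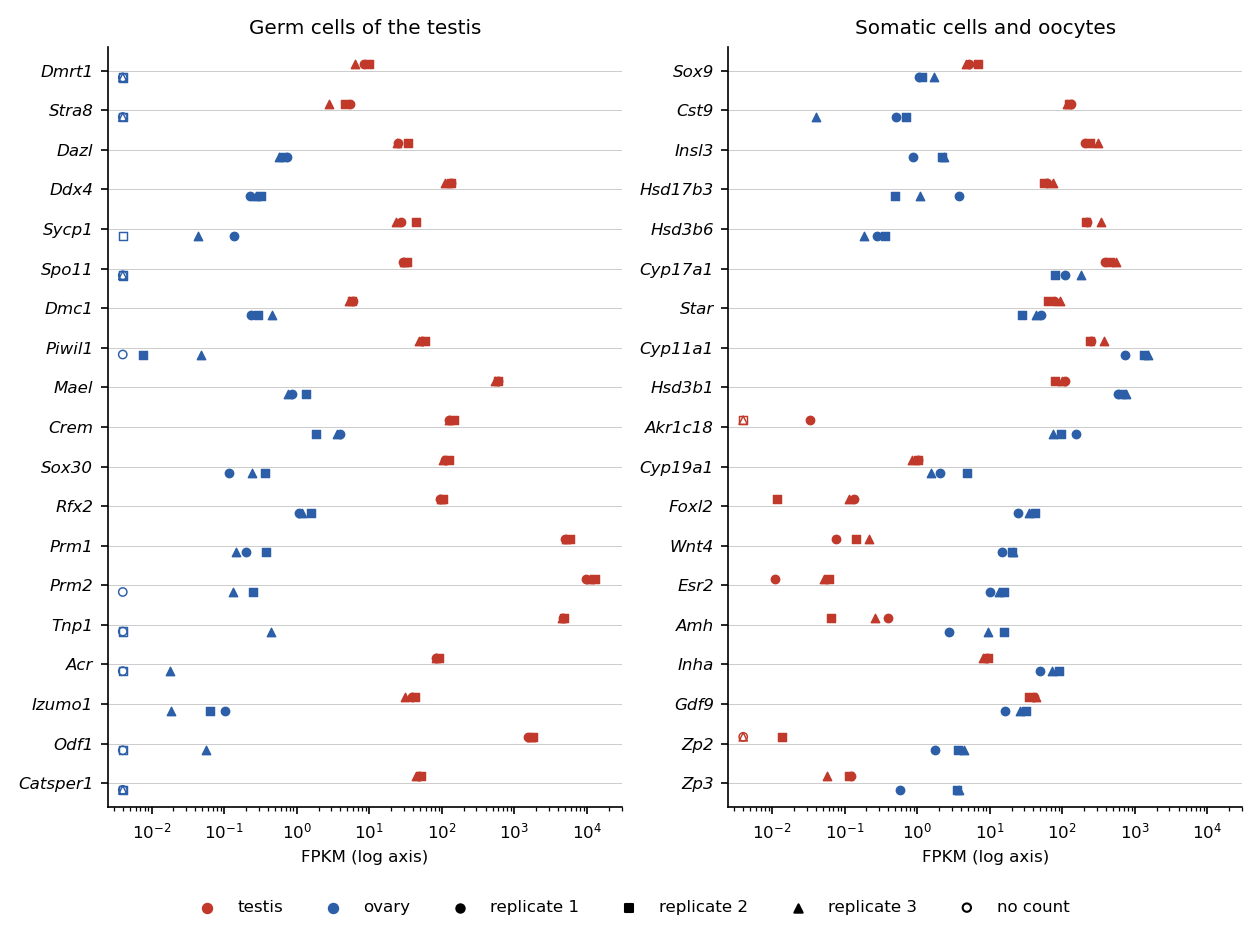
FPKM (log axis) of germ cell genes (left) and of somatic, steroid and oocyte genes (right) in each testis (red) and ovary (blue) library; the symbol gives the replicate and an open symbol at the left edge stands for no count. Testis libraries reach 9684 to 12813 FPKM at Prm2, and on the right the red and blue symbols trade sides between Insl3, Hsd3b6 and Cst9, higher in testis, and Akr1c18, Foxl2 and Esr2, higher in ovary.

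Of 19 genes on the path from cholesterol to sex steroids, 14 were higher in ovary (73.7%, against 32.1% of all members) and 4 in testis (21.1%, against 38.8%), with a median log2 fold change of -1.41. Cyp11a1, the enzyme that cuts the side chain of cholesterol, read 251, 244 and 375 FPKM in testis and 723, 1354 and 1509 FPKM in ovary (log2 fold change -2.04 ± 0.31). Hsd3b1, which makes progesterone, read 109, 78.5 and 100.1 FPKM in testis and 580.1, 673 and 766 FPKM in ovary (log2 fold change -2.81 ± 0.25). Hsd3b6, the form of the same enzyme in Leydig cells, read 219, 212 and 337 FPKM in testis and 0.276, 0.361 and 0.183 FPKM in ovary (log2 fold change 9.87 ± 0.54). Hsd3b6 was thus near 0 in ovary, while Hsd3b1 was found in both gonads. Star, the carrier that brings cholesterol into mitochondria, read 78.1, 64.3 and 92.8 FPKM in testis and 51.4, 28.1 and 44.1 FPKM in ovary (log2 fold change 0.93 ± 0.24), but was not called with total counts or the upper quartile, and its locus shares exon bases with another gene. Cyp17a1, which turns progestins into androgens, read 393, 449.6 and 543 FPKM in testis and 111, 79.5 and 179 FPKM in ovary (log2 fold change 1.91 ± 0.37), and Hsd17b3, which makes testosterone in Leydig cells, read 62.3, 55.2 and 75.6 FPKM in testis and 3.71, 0.490 and 1.09 FPKM in ovary (log2 fold change 5.21 ± 0.58). DESeq2 did not call Hsd17b3 (adjusted p = 0.107). Hsd17b1, the enzyme of granulosa cells that makes estradiol, read 0.678, 0.689 and 0.557 FPKM in testis and 25.7, 44.4 and 34.3 FPKM in ovary (log2 fold change -5.75 ± 0.55). Cyp19a1, the aromatase, read 1.04, 1.04 and 0.840 FPKM in testis and 2.03, 4.85 and 1.55 FPKM in ovary (log2 fold change -1.53 ± 0.46), a low level that was highest in ovary replicate 2, and without that library it was not called (log2 fold change -0.88, edgeR adjusted p = 0.115). Lhcgr, the receptor for luteinizing hormone on both kinds of steroid cell, was at 21.4 against 56.9 FPKM (log2 fold change -1.41 ± 0.31).

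Of 11 Leydig cell markers, 7 were higher in testis and 4 in ovary (median 1.4). Insl3, the hormone that draws the testis into the scrotum, was counted on a locus shared with Jak3, which read 205, 239.8 and 314 FPKM in testis and 0.866, 2.17 and 2.35 FPKM in ovary (log2 fold change 7.13 ± 0.35). The 4 higher in ovary were Cyp11a1, Hsd3b1, Lhcgr and Nr5a1, which luteal or theca cells of the ovary also use. Granulosa cell markers were higher in ovary at 14 of 16 members, 9 of them by 16-fold or more, with a median of -4.70. Inhba, the beta A chain of inhibin and activin, read 0.594, 0.328 and 0.677 FPKM in testis and 44.2, 29.7 and 14.9 FPKM in ovary on the locus with the most counts (log2 fold change -5.79 ± 0.51), and Inha, the alpha chain of inhibin, read 9.06, 9.41 and 8.11 FPKM in testis and 49.0, 90.5 and 71.1 FPKM in ovary (log2 fold change -2.99 ± 0.27). Amhr2, the receptor for AMH, was the 1 member higher in testis, at 61.1 against 37.8 FPKM (log2 fold change 0.69 ± 0.26), and was not called with total counts, the upper quartile or no filter, nor without ovary replicate 3 (log2 fold change 0.63). Luteal cell markers were higher in ovary at 9 of 14 members (median -1.34). Akr1c18, which breaks down progesterone as the corpus luteum regresses, read 0.0337, 0 and 0 FPKM in testis and 154, 95.6 and 73.9 FPKM in ovary (log2 fold change -12.79 ± 0.70). Ptgfr, the receptor for prostaglandin F that starts this regression, read 0.0168, 0.00788 and 0 FPKM in testis and 9.88, 13.6 and 17.0 FPKM in ovary (log2 fold change -10.52 ± 0.72). Prlr, the prolactin receptor, was at 18.1 against 18.5 FPKM with an interval of -1.28 to 1.21.

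Oocyte genes were higher in ovary at 17 of 27 members, 10 of them by 16-fold or more with genes lacking a count in testis at their bound (13 by the fitted fold), but at low levels, and 3 were higher in testis (median -2.56, or -1.80 with 4 members at their bound). Zp2 and Zp3 make the coat of the egg, the zona pellucida. Zp2 read 0, 0.0138 and 0 FPKM in testis and 1.77, 3.64 and 4.43 FPKM in ovary (log2 fold change -8.95 ± 1.16), and Zp3 read 0.122, 0.114 and 0.0574 FPKM in testis and 0.579, 3.54 and 3.72 FPKM in ovary (log2 fold change -4.69 ± 0.84). Zp1, the third coat protein, was at 0.0454 against 1.27 FPKM (log2 fold change -4.74 ± 0.94). In each of the 3, ovary replicate 1 was the lowest ovary library, and none reached 10 FPKM. Zar1, a maternal factor, read 0 FPKM in each testis library and 0.144, 0.760 and 0.848 FPKM in ovary, at least 4.12-fold higher in ovary. Nlrp5, a maternal factor of the subcortical complex of eggs, was at 0.895 against 2.88 FPKM (log2 fold change -1.68 ± 0.52), and was not called without ovary replicate 3 (log2 fold change -1.40). Figla, the regulator that turns on the zona genes, read 0.914, 0.630 and 0.773 FPKM in testis and 0.824, 0.630 and 0.887 FPKM in ovary, with an interval of -1.56 to 1.52. Mos, a kinase that holds eggs in meiosis, and Npm2, a histone chaperone of the egg, were not called either, at 0.430 against 0.807 FPKM and 4.81 against 2.48 FPKM, the latter being called higher in testis with the 6 gonad libraries alone. Higher in testis was Nlrp14, a germ cell protein of both sexes (39.1 against 4.29 FPKM, log2 fold change 3.19 ± 0.33). The other 2 were less firm. Btg4, which clears maternal RNA, was called at a log2 fold change of 1.65 ± 0.55 but not without ovary replicate 1 (log2 fold change 1.26), nor with total counts or the upper quartile. Gdf9, a growth factor of oocytes, was called at a log2 fold change of 0.70 ± 0.30, but its locus shares exon bases with another gene and was at 250.03 FPKM in heart, and it was not called with total counts, the upper quartile or no filter, nor without testis replicates 1 or 3 or ovary replicates 1 or 3 (log2 fold change 0.68, 0.64, 0.47 and 0.74).

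Stroma markers were higher in ovary at 14 of 14 members (against 32.1% of all members, median -1.91), smooth muscle at 7 of 8 (-2.18), vessel endothelium at 9 of 10 (-2.81) and surface epithelium at 8 of 9 (-3.27). Acta2, the actin of smooth muscle, read 136, 115 and 157 FPKM in testis and 581, 1250 and 1345 FPKM in ovary (log2 fold change -2.96 ± 0.35), and Myh11, its myosin, was at 23.9 against 92.4 FPKM. Pecam1, an adhesion protein of endothelium, read 1.72, 1.83 and 2.22 FPKM in testis and 12.6, 18.5 and 22.1 FPKM in ovary (log2 fold change -3.20 ± 0.29), and Cdh5, the cadherin of vessels, was at 4.62 against 16.8 FPKM. Krt19, a keratin of the ovarian surface, read 4.17, 3.41 and 7.66 FPKM in testis and 129, 106 and 88.3 FPKM in ovary (log2 fold change -4.41 ± 0.42), Krt7 was at 0.958 against 23.1 FPKM and Msln, mesothelin, at 3.20 against 30.7 FPKM. Col3a1, a collagen of soft tissue, read 58.4, 49.7 and 87.1 FPKM in testis and 109, 215 and 243 FPKM in ovary (log2 fold change -1.54 ± 0.31). Smaller differences depended on scale or a library. Dcn, the proteoglycan decorin, was called at a log2 fold change of -0.61 ± 0.22 but not with RLE, DESeq2 or without testis replicate 2 (log2 fold change -0.44) or ovary replicate 3 (log2 fold change -0.48). Col1a1, the main collagen of skin and bone, was called at a log2 fold change of -1.28 ± 0.49 but not with RLE or when testis replicate 1, testis replicate 2, ovary replicate 2 or ovary replicate 3 was left out, with values of -1.23, -1.07, -1.06 and -1.18. Des, the muscle filament desmin, was among the genes with the widest ovary spread, and its log2 fold change of -2.41 ± 0.53 came to -2.90 without ovary replicate 1. Pdlim3, a muscle protein in the same group, read 14.3, 10.9 and 15.7 FPKM in testis and 8.17, 39.7 and 37.1 FPKM in ovary (log2 fold change -1.06 ± 0.34), and was not called without testis replicate 2 or ovary replicates 2 or 3 (log2 fold change -0.88, -0.74 and -0.82). Rbis, a ribosome biogenesis factor, was by contrast highest in ovary replicate 1, so that its log2 fold change of -1.21 ± 0.50 came to -0.23 without it, and it was not called either when any 1 testis library was left out (log2 fold change -1.14 to -1.25).

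The count of leukocyte genes called changed with the scale: 4 of 10 were higher in ovary and none in testis (median -0.44), against 1 and 1 with RLE or DESeq2 and 8 and 0 with total counts or the upper quartile. Without testis replicate 2 or ovary replicate 2 the counts were 1 in ovary and 1 in testis, and without ovary replicate 3 they were 2 and 1. Ptprc, the leukocyte antigen CD45, was at 2.15 against 4.30 FPKM (log2 fold change -1.0 ± 0.40), and Csf1r, a receptor of macrophages, at 19.5 against 13.4 FPKM (log2 fold change 0.53 ± 0.24), called higher in testis with RLE or DESeq2. Of 7 oviduct markers 3 were higher in testis and 2 in ovary (median -1.04). Ovgp1, which defines that epithelium, was not called at 0.461 against 1.11 FPKM, but was called higher in ovary with total counts, the upper quartile, no filter or the 6 gonad libraries alone. The 3 higher in testis were the claudin Cldn3 at 27.4 against 5.58 FPKM (log2 fold change 2.30), the mucin Muc1 and the signal Wnt7a. Muc1 was at 5.97 against 0.394 FPKM (log2 fold change 3.92) and Wnt7a at 0.419 against 0.0433 FPKM (log2 fold change 3.15). Cldn4 was higher in ovary at 0.137 against 0.820 FPKM. Epcam, a marker of many epithelia, read 16, 16 and 14.5 FPKM in testis and 55.7, 20 and 19.8 FPKM in ovary and was highest in ovary replicate 1, so that its log2 fold change of -1.04 ± 0.30 came to -0.37 without that library (edgeR adjusted p = 0.188). The 4 red cell globins were not called (median -0.43), with Hbb-bs at 91.6 against 127 FPKM and Hba-a1 at 11.0 against 11.9 FPKM, though Hbb-bs was called higher in ovary with total counts. Of the 8 fat cell genes, only Lipe was called, at 161 against 6.77 FPKM (log2 fold change 4.57 ± 0.57), and this lipase has a testis form. Adipoq, which defines fat cells, read 41.3, 36.0 and 44.6 FPKM in testis and 3.51, 57.8 and 36.9 FPKM in ovary and was not called, as were Cfd and Fabp4, and the median SD of log2 CPM (counts scaled to the TMM library total) over the list was 2.23 in ovary.

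Of 42 collagen chains, 21 were higher in ovary (against 32.1% of all members) and 12 in testis (28.6%, below the 38.8% of all members), with a median of -0.79. Among interstitial and basement membrane chains, Col1a1, Col1a2, Col3a1, Col4a1, Col4a2, Col5a1, Col5a2, Col6a1, Col6a2 and Col6a3 were higher in ovary. Other chains of the same kinds were higher in testis, with log2 fold changes of 1.81 for Col4a3, 0.70 for Col4a4, 11.40 for Col2a1 and 1.92 for Col6a5. Those called higher in testis with the smallest p were Col20a1 (80.9 against 0.45 FPKM, log2 fold change 7.45 ± 0.48), Col22a1 (68.8 against 0.0890 FPKM, log2 fold change 9.48 ± 0.50) and Col9a3 (16.6 against 0.0896 FPKM, log2 fold change 7.55 ± 0.44).

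The genes at the highest level among those 16-fold apart include list members described above. In testis they were Prm2, Hist1h2ba, Prm1, Tnp1, Tnp2, Oaz3, Smcp, Odf1, Gstm5 and Dbil5. Oaz3, the antizyme of spermatids, read 2504, 3063 and 2813 FPKM in testis and 0.123, 0.133 and 0 FPKM in ovary. Gstm5, a glutathione transferase, read 2096, 2094 and 2073 FPKM in testis and 41.2, 51.9 and 43.8 FPKM in ovary (log2 fold change 5.52 ± 0.25), and Dbil5, a testis form of the acyl-CoA binding protein, read 1677, 1786 and 1682 FPKM in testis and 0.681, 0.662 and 0.733 FPKM in ovary (log2 fold change 11.25 ± 0.57). In ovary they included Igfbp5, Hist1h1b, Mdk, Ephx2, Akr1c18, Krt19, Lum, Serpine2 and Krt18. Igfbp5, a binding protein of insulin-like growth factors, read 6.29, 8.02 and 18 FPKM in testis and 282, 216 and 178 FPKM in ovary (log2 fold change -4.39 ± 0.34). Mdk, the growth factor midkine, was at 6.73 against 139.5 FPKM, and Ephx2, an epoxide hydrolase, at 5.42 against 133 FPKM. Serpine2, a protease inhibitor of granulosa cells, was at 2.63 against 72.7 FPKM, and Lum, the proteoglycan lumican, at 3.96 against 74.7 FPKM. Hist1h1b, a linker histone of dividing cells, read 10.2, 8.91 and 11.8 FPKM in testis and 119, 216 and 181 FPKM in ovary. At the other end, Eef1g, Ppia, H3f3a, Serinc3 and Eif4g2 had the highest levels among genes whose interval lay within -0.5 to 0.5. Ppia, a prolyl isomerase used as a reference gene, read 259.7, 225 and 294 FPKM in testis and 296, 267 and 256 FPKM in ovary (95% interval -0.45 to 0.31). All 5 were called higher in ovary with total counts or the upper quartile, where the median of all genes also moved down.

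Many enzymes and motor proteins have a form made in male germ cells beside a form that most cells use, and 23 such pairs were set side by side. The testis form was higher in testis in 22 of 23 pairs and in ovary in none (95.7%, against 38.8% of all members), with a median log2 fold change of 10.18. The widely used form was higher in testis in 9 pairs (39.1%, near the 38.8% of all members) and in ovary in 12 (52.2%, against 32.1%), with a median of -0.50. Ldhc, the lactate dehydrogenase of sperm, read 1073, 1012 and 1091 FPKM in testis and 0.0652, 0.179 and 0.0561 FPKM in ovary (log2 fold change 13.34 ± 0.85), and Ldha read 406, 405 and 411 FPKM in testis and 69.6, 90.9 and 84.2 FPKM in ovary (log2 fold change 2.32 ± 0.22). Both were higher in testis, and Ldhc made up 72.2 ± 0.664% in testis and 0.119 ± 0.0688% in ovary of the 2 forms' summed FPKM (SD, n = 3). Gapdhs, the sperm form of a glycolytic dehydrogenase, counted on a locus shared with Tmem147, read 829, 955 and 973 FPKM in testis and 8.28, 11.5 and 9.53 FPKM in ovary (log2 fold change 6.56 ± 0.26), and Gapdh read 25.6, 25.8 and 32.5 FPKM in testis and 46.4, 89.3 and 80.8 FPKM in ovary (log2 fold change -1.37 ± 0.31). Here the forms moved in opposite directions, and the share of the sperm form was 97.0 ± 0.303% in testis and 12.4 ± 2.45% in ovary. Cox8c, a testis subunit of cytochrome oxidase, was at least 1444-fold higher and made up 92.2 ± 1.99% of its pair in testis, while Cox8a was higher in ovary (log2 fold change -1.32 ± 0.24).

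Among proteins of the cell cycle and chaperones, Ccna1, the cyclin A of meiosis, was at 94.1 against 0.0374 FPKM and Ccna2, that of mitosis, at 5.25 against 10.7 FPKM, higher in ovary (log2 fold change -1.02 ± 0.24). Hspa1l and Hspa2, chaperones of spermatids and spermatocytes, made up 99.7 ± 0.0153% and 68.8 ± 3.67% of their pairs in testis. Clgn, a testis chaperone of the endoplasmic reticulum, read 135, 139.5 and 109 FPKM in testis and 0.0182, 0.0147 and 0.0522 FPKM in ovary (log2 fold change 12.00 ± 0.55), and Canx, the form most cells use, was at 33.2 against 47.0 FPKM, called higher in ovary but not with RLE or DESeq2 or without testis replicate 2 or ovary replicate 3 (log2 fold change -0.46 and -0.44). Tuba3a, a testis tubulin, was 96.4 ± 0.626% of its pair in testis, and Kif2b and Cetn1 had no read in any ovary library, at least 5945-fold and 2585-fold higher. Psma8, a proteasome subunit of meiosis, made up 49.2 ± 6.67% in testis and 0.490 ± 0.157% in ovary of its pair. Of the general transcription factors, Tbpl1, the germ cell relative of the TATA-binding protein, was at 88.4 against 8.08 FPKM (log2 fold change 3.45 ± 0.16), and Tbp itself, on the larger of its loci, at 49.8 against 7.04 FPKM (log2 fold change 2.82 ± 0.15), so that Tbpl1 made up 64.0 ± 0.670% in testis and 53.5 ± 1.22% in ovary. Gtf2a1l was at 175 against 0.144 FPKM, and Gtf2a1 was not called. The 1 testis form not higher was Ppp3cc, a calcineurin subunit of sperm, at 0.227 against 0.299 FPKM, with an interval of -1.78 to 1.02. The locus read as Ppp3cc was low in every tissue, with a highest somatic tissue mean of 0.294 FPKM, so its values say little about this form. Small shifts of the wide forms rest on the scale: Calr (log2 fold change 0.51), Cetn3 (0.62), Ppp3ca (0.35) and Ybx1 (0.59) were higher in testis with TMM and below 0 with total counts. Aurkb (0.78) was not called with total counts, the upper quartile or no filter, nor without 5 of the 6 libraries in turn (log2 fold change 0.61 to 0.83). Aurkc, its meiotic relative, read 15.5, 14.2 and 15.5 FPKM in testis and 0, 0.549 and 0.559 FPKM in ovary (log2 fold change 5.30 ± 0.79), with ovary replicate 1 lowest of the 3. The remaining pairs followed the same form, with Eno4, Cyct, Cox6b2, Slc25a31, Calr3, Pdilt, Ppp3r2 and Ybx2 all higher in testis, by log2 fold changes of 5.49 (Calr3) to 14.95 (Ppp3r2).

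**Figure D5:**
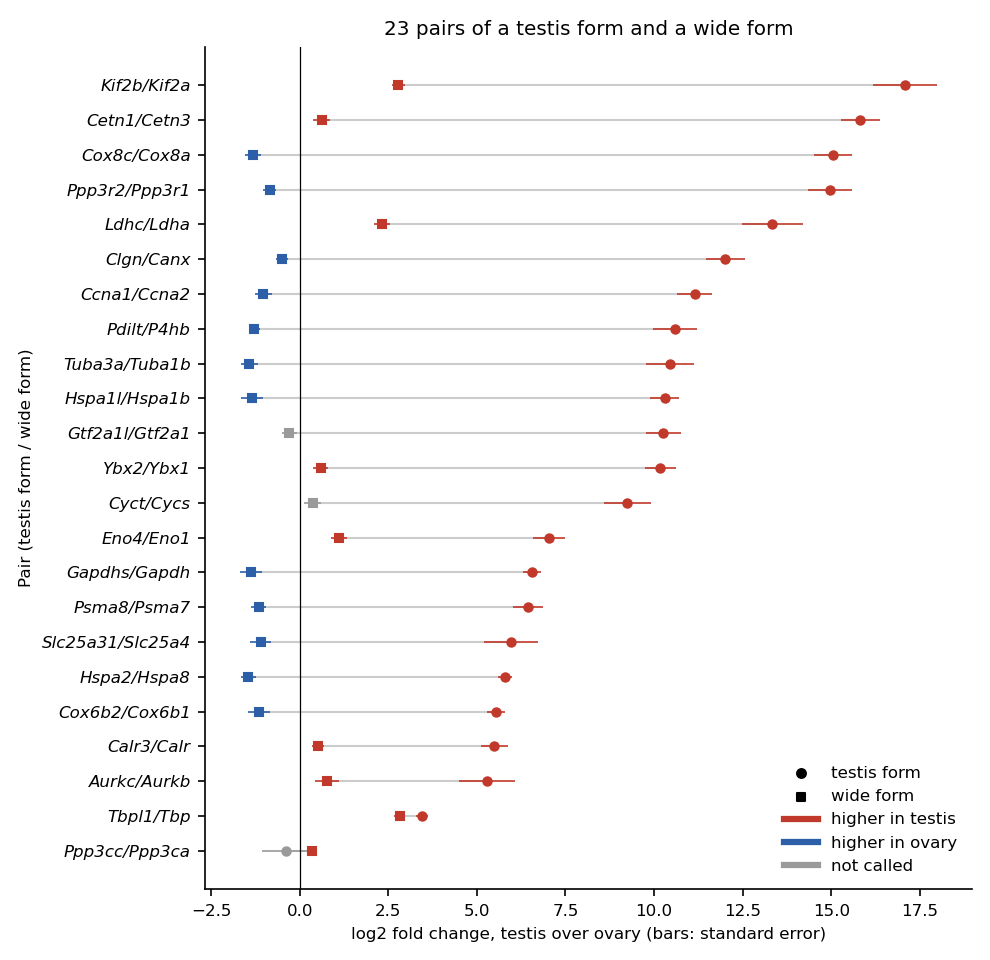
Log2 fold change of testis against ovary, with its SE as bars, for the testis form and the widely used form of 23 protein pairs, joined by a line. The testis forms lie to the right in 22 pairs (median 10.18), and the wide forms lie around 0 (median -0.50).

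Subunits of the ribosome, the proteasome and the respiratory chain were read as well. Testis forms were included for the proteasome and the respiratory chain, while the ribosome list held only the widely used copies. Of 72 cytosolic ribosomal proteins, 65 were higher in ovary and none in testis (90.3%, against 32.1% of all members), with a median log2 fold change of -1.42. With each scaling and each library left out, 60 to 72 were higher in ovary and none in testis. Rps3 was at 81.8 against 461 FPKM (log2 fold change -2.49 ± 0.21) and Rpl10a at 133 against 562 FPKM (log2 fold change -2.08 ± 0.20), named after their values were seen. Most ribosomal protein genes have processed copies in the genome, and reads that fit a copy equally well were not counted. Of 37 proteasome subunits, 9 were higher in testis (24.3%, against 38.8% of all members) and 11 in ovary (29.7%, near the 32.1% of all members). Their median was 0.05. The counts were 15 and 6 with RLE, 15 and 7 with DESeq2, 6 and 23 with total counts and 6 and 20 with the upper quartile. Beside Psma8, those higher in testis with the smallest p were Psma6 (461 against 93.9 FPKM, log2 fold change 2.30 ± 0.22) and Psmc2 (229 against 57.9 FPKM, log2 fold change 1.98 ± 0.19). Without testis replicate 2, 7 were higher in ovary. Respiratory chain subunits were higher in testis at 19 of 73 (26.0%, below the 38.8% of all members) and in ovary at 10 (13.7%, below 32.1%), with a median of -0.03. In ovary 5 were higher without testis replicate 1 or testis replicate 2. The 19 include the testis forms Cox8c, Cox7b2 and Cox6b2, the 3 members that were 16-fold higher. The counts in testis and in ovary differed between settings, from 22 and 5 with RLE and 22 and 6 with DESeq2 to 12 and 18 with no filter, 22 and 22 with the 6 gonad libraries alone, 10 and 27 with the upper quartile and 10 and 42 with total counts. Atp5g3 and Atp5g2, copies of subunit c of ATP synthase, were higher in ovary (log2 fold change -1.50 ± 0.31 and -1.46 ± 0.28).

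The other tissues set these differences in context. Of the 2374 genes 16-fold higher in testis, 2000 (84.2%) had their highest tissue mean in testis, and 1302 (54.8%) were under 1 FPKM in every somatic library. A mean of 1 FPKM or more in a somatic tissue was still found for 38.0%. Of the 309 genes 16-fold higher in ovary, 170 (55.0%) were highest in ovary and 111 (35.9%) were under 1 FPKM in every somatic library, while brain was highest for 16.2% and colon for 15.9%. Among genes called at less than 16-fold, 59.4% of those higher in testis were highest in testis and 26.5% of those higher in ovary were highest in ovary. The level of genes 16-fold higher in testis had a median of 17.9 FPKM in testis, and that of genes 16-fold higher in ovary a median of 1.63 FPKM in ovary.

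Genes far apart between the gonads differed in structure from the rest, given here as a description. The median exon length was 2262.5 bases for genes 16-fold higher in testis and 2724 for those 16-fold higher in ovary, against 3188 for all members. Loci built from Iso-seq reads were 57.9% and 44.0% of the 2 groups, against 69.9% of all. In the RefSeq table, 13456 members had a promoter, taken as the 250 bases before the start. Its median GC content was 52.8% for genes 16-fold higher in testis, 52.4% for those 16-fold higher in ovary, 58.4% for all members and 52.4% for all 32851 promoters in the table. The median ratio of observed to expected CpG was 0.353 and 0.335, against 0.762 for testis genes and 0.675 for ovary genes under 16-fold, 0.653 for all members and 0.374 for the whole table, so both 16-fold groups were near the whole table in GC content and CpG. The SP1 letters GGGCGG, on either strand, were in 30.6% and 34.9% of the 2 groups, 52.3% of members and 32.7% of the table. TATAAA, on the sense strand, was in 6.41% and 9.17%, against 5.05% of members and 7.59% of the table. The cyclic AMP response element TGACGTCA was in 2.10% of promoters of genes 16-fold higher in testis and 2.36% of members, and CAAGGTCA, the letters bound by NR5A1, in 1.77% and 1.06%. In ovary, 0.917% of the 218 promoters of genes 16-fold higher held the former and 1.38% the latter.

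Chromosome 14 held the highest share of genes higher in testis, 48.6% of 732 tested, against 34.0% to 40.9% on the other autosomes, and 24.6% of its genes were 16-fold higher, against 10.1% to 15.2% elsewhere. The longest run of neighbouring tested genes all 16-fold higher in testis held 25 genes at chr14:41278805-43784745, and 2 others on that chromosome held 16 and 13, nearly all with predicted gene names. A run of 12 on chromosome 5 included Speer1, and a run of 9 on chromosome 7 was of kallikrein genes (Klk1b8 to Klk1b3). A further 9 on chromosome 17 ended with Pgk2, the phosphoglycerate kinase of spermatids, Crisp1 and Crisp2. The longest run 16-fold higher in ovary held 8 genes at chr4:143696500-144377933, among them Oog2, Oog3 and Pramef20, which belong to a family of oocyte genes. Runs of 4 held the F-box genes Fbxw14, Fbxw28, Fbxw22 and Fbxw16 on chromosome 9 and Tcl1b2, Tcl1b1, Tcl1b3 and Tcl1 on chromosome 12. Runs of 3 held Obox2, Obox1 and Obox5 on chromosome 7 and Khdc1a, Khdc1c and Khdc1b on chromosome 1. Several of these runs hold families of related genes. Only reads placed at 1 site were counted, so the values of single members are uncertain where copies are alike, and how alike they are was not tested.

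The spread among libraries was wider in ovary. The median SD of log2 CPM (counts scaled to the TMM library total) over the 17379 genes was 0.152 in testis and 0.262 in ovary, a difference of 0.11. Between 2 libraries the median SD was 0.134 in ovary without replicate 1 and 0.237 and 0.276 without replicate 2 or 3. In testis it was 0.105, 0.120 and 0.144, and without ovary replicate 1 the ovary value lay within the range of the testis pairs. Some values above also carry a limit from the annotation. Among the genes named with values, the loci of Acrbp, Adam17, Adam19, Adam3, Atp5g2, Calr3, Ccna1, Ccna2, Cetn3, Col3a1, Col9a3, Dhh, Dnah1, Foxl2, Gapdhs, Gdf9, Gfra1, Gopc, Gstm5, Insl3, Krt7, Lipe, Mcm7, Mdk, Nr5a1, Ovgp1, Piwil4, Ptgfr, Rbis, Sox8, Spaca6, Star, Sycp3, Tnp1 and Wt1 share exon bases with another gene, and reads of both may stand in their counts. Tuba3a, Hspa1b, Hspa1l, Hist1h1b, Hist1h2ba, Ppia, Eef1g, H3f3a, Gapdh, Hba-a1 and Hbb-bs have near-identical relatives or processed copies. Reads that fit a copy equally well were not counted, so their levels are uncertain, as are the shares of the pairs that hold Tuba3a, Hspa1b, Hspa1l or Gapdh.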

How the data were processed

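Gene counts of 29 RNA-seq libraries in 10 groups were used, 3 of them of testis and 3 of ovary. The counts per gene were deposited by the authors as unnormalised whole numbers. The submitters' processing notes name FastQC 0.11.8, MultiQC 0.9, HISAT2 2.0.5 and featureCounts 1.6.3. The study's methods state that uniquely mapped reads were counted on an annotation that merged Iso-seq loci with ENSEMBL genes. The annotation's header gives build GRCm38.p6, and no source used here gives how counting treated the strand. The Iso-seq libraries of the series served only through this annotation. A locus was named by its protein-coding ENSEMBL genes, joined by a slash where it carried several, and a symbol found on several loci was read on the locus with most counts.

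Counts were tested with edgeR 4.0.16 (limma 3.58.1, R 4.3.3) by the quasi-likelihood F test with robust dispersion, 1 mean per group over the 29 libraries, TMM factors and the filterByExpr filter, and p-values were adjusted by Benjamini and Hochberg over all 29911 genes tested. A gene was called at an adjusted p under 0.05. FPKM are counts per kilobase of exon union, scaled to the TMM-scaled library total. SD of log2 CPM used a prior count of 2. A bound used 3 counts per library, and, like every count here, covers counting error only. The fit was first tested on simulated data with known changes and the same spread in every group. It recovered 43% of 100 genes changed 2-fold and 89% of 100 changed 4-fold, and 5.04% of its calls were of unchanged genes. Genes not called may thus hold differences of about 2-fold. Alternatives were other scalings, no filter on low counts, DESeq2 1.42.0, the 6 gonad libraries alone, a replicate term, other gene sets and each library left out.

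The members and gene lists were chosen with earlier results of these data known. Genes were named by rule: fixed members of each list, the 10 genes per direction with the highest FPKM among those called, 16-fold apart and with library values that do not overlap between the gonads, up to 3 called members per list that went against it, both genes of each pair, up to 5 genes at high level with an interval within -0.5 to 0.5, and up to 3 called genes per gonad with the widest spread at 10 FPKM or more. Other list members and the genes of runs were named after their values were seen. Promoters and their letters are from RefSeq. Some genes that these rules name, and the pairs that hold them, are not reported here.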

Additional observations from a re-analysis of the deposited data

How the results depend on the processing

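Beside 6735 and 5586 genes called higher in testis and in ovary, and 2374 and 309 of them 16-fold apart, the other scalings, tools and libraries gave 5040 (total counts) to 7286 (RLE) genes higher in testis and 4807 (DESeq2) to 8023 (total counts) in ovary. The count 16-fold higher in ovary came to 495 with total counts, over 1.5 times the main value. Leaving out 1 library gave 6431 to 6532 in testis and 4888 to 5476 in ovary, and 2335 to 2424 and 277 to 346 at 16-fold. Loci with exactly 1 gene gave 6514 and 5405 (2310 and 309 at 16-fold), and the 13157 genes with no exon overlap gave 4917 and 4350 (1888 and 252). Without fat cell genes and genes that spanned 8-fold in ovary, a choice made after seeing the data, 6712 and 5569 were called. The difference in genes at 1 FPKM or more was 1291 at 0.5 FPKM, 1019 at 5 FPKM, 382 per total count (chosen after seeing the data) and 1054 to 1155 with 1 library left out. The difference in SD was 0.11, 0.096 with total counts and 0.112 at a mean of 5 FPKM or more, and -0.018 (without ovary replicate 1) to 0.157 with 1 library left out, where an SD over 2 libraries is set against one over 3 and the values are not like for like.

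Testis and ovary libraries share replicate numbers, but the correlation of their deviations was 0.0184, -0.0895 and 0.0175 for the 3 numbers, and not every library correlated best with its own number, so the numbers do not pair them. With a replicate block, 6695 and 5512 genes were called (2388 and 309 at 16-fold), and 6457 and 5843 (2220 and 262) in the 6 gonad libraries. Of the named genes, Rbis was not called under either block, and Akr1b7, Pdlim3 and Ppp3ca were not called and Esr1, Kit, Npm2 and Ovgp1 were called under the second.

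Over the 186 named genes, 2456 recomputed values kept their direction and side of the threshold, 99 fell short of it, 34 passed it and 7 changed sign. With total counts Calr came to -0.12, Cetn3 to -0.046, Eif4g2 to -0.52, Ppp3ca to -0.29 and Ybx1 to -0.049 (log2 fold change), and with the upper quartile Eif4g2 to -0.35 and Ppp3ca to -0.13. The cause was not tested. Of the counts of list members called, 785 stayed within 1.5 times and 55 did not.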
